A study of Mus musculus with 10 samples.

Results

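Large chaperones of the HSP70 and HSP90 families and the proteins that work with them were followed in hearts of mice that trained on a treadmill and of mice that did not. The 10 genes were picked by name as the principal stress-inducible and constitutive chaperones of the cytosol and the mitochondrial matrix with their partners: Hspa1a, Hspa1b, Hspa8, Hsp90aa1, Hsp90ab1, Dnajb1, Hsph1, Hspd1, Hspe1 and Bag3. Ensembl identifiers in the tables were joined to these symbols by GENCODE. They are 10 of the 56748 gene identifiers in the count tables, and all 10 were among the 15454 genes with enough counts to be tested.

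RNA was sequenced from whole hearts, atria and ventricles included, of 5 training and 5 sedentary mice, each heart giving 1 library. All animals were wild-type male C57BL/6 mice, bought at 8 weeks of age, and the labels name no transgene. The training mice ran at 15 m/min for 120 min a day on 5 days a week over 8 weeks, after a week of getting used to the treadmill, and the sedentary mice were of the same age. According to the study's methods hearts of both groups were taken after a PET/CT scan under isoflurane, with a labelled glucose tracer injected beforehand. The hour of the day at which a heart was taken and the time since the last run are not given in the sources used here.

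The question was whether the level of these chaperone transcripts in the heart differed after 8 weeks of training. Counts on genes summed to 29461697 to 35945417 in the training libraries and to 35196993 to 39431030 in the sedentary libraries. Levels are given as CPM, the counts of a gene relative to the size of its library after edgeR's TMM correction, and differences as log2 fold changes from sedentary to training hearts, so that a value above 0 is a higher level after training. A gene was called when its p in the quasi-likelihood test of edgeR, adjusted after Benjamini and Hochberg over all tested genes, was below 0.1. The p-values weigh a difference between the groups against the spread between hearts of a group, which edgeR estimates with information from all genes.

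HSP70 proteins bind short hydrophobic stretches of unfolded proteins and release them in a cycle driven by ATP. J-domain proteins such as Dnajb1 deliver the client and start the cycle, and nucleotide exchange factors such as Hsph1 and Bag3 end it. HSP90 takes over clients that are close to their final fold, among them kinases and steroid receptors, and Hspd1 with its lid Hspe1 forms the folding chamber of mitochondria. The heat shock factor HSF1 drives the inducible members through heat shock elements, which are inverted repeats of the unit GAA. In heart muscle, chaperones and Bag3 also help to maintain sarcomere proteins under mechanical load.

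The sequences are shown because they bear on how the counts can be read and on what the members share. Hspa1a (ENSMUSG00000091971, chr17:35188166-35191132, minus strand, GRCm39) and Hspa1b (ENSMUSG00000090877, chr17:35175412-35178214, minus strand) are neighbours, and of 1923 aligned coding bases 8 differed. Both stretches below run from coding base 1348 to 1447, counted from 1 at the start codon, and lie at chr17:35189455-35189554 for Hspa1a and at chr17:35176537-35176636 for Hspa1b. Capitals mark the 2 bases at which they differ, A1380G and A1416G, with the base of Hspa1a first.
Hspa1a: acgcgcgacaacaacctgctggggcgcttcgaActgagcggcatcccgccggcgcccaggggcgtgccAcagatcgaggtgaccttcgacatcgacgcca
Hspa1b: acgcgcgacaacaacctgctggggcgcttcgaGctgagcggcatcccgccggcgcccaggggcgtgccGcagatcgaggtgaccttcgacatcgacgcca

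A read had 100 bases, so a read from many other stretches of these genes could not be placed on one of them. Of all windows of 100 bases in the Hspa1a transcript, 47.1% were also found in Hspa1b, and 49.9% of those of Hspa1b were found in Hspa1a. Unique counts were accordingly between 40.1% and 44.4% of the expected counts that RSEM gave Hspa1a, and between 37.4% and 44.4% for Hspa1b. RSEM shares reads that match several genes out between them. Hspa8 had 63.8% of its windows at 7 other places in the genome and Hsp90aa1 had 56.0% at 4. Hspd1 had 34.2% at 2 and Hspe1 had 20.4% at 1, while Hsp90ab1, Dnajb1, Hsph1 and Bag3 had none. Unique counts were 53.6% to 55.8% of the expected counts for Hspa8 and 52.3% to 57.0% for Hsp90aa1. They were 85.8% to 88.4% for Hspd1 and 56.6% to 62.4% for Hspe1. Hspa1a also lies under the noncoding gene Gm20481, which runs over 2225 of its bases on the opposite strand, and Hspd1 and Hspe1 overlap each other on opposite strands. The libraries were directional, and counts of the sense strand were used for this reason.

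Heat shock elements were sought in the 250 bases before the start of each gene's canonical transcript, as GAANNTTC and as TTCNNGAA, which are each their own reverse complement and can overlap in a longer element. At least 1 of these was present in 5 of the 10 members, against 12.3% of 21757 promoters of the same length. A longer form, 3 units in a row on either strand, was present in 2 members, Hspd1 and Hspe1, against 0.349% of all promoters. These 2 genes share the same 18 bases, and the windows of Hspa1a and Hspa1b are near copies. The counts of members are therefore not counts of independent elements. CCAAT, on either strand, was found in 7 members and in 36.5% of all promoters. TATAAA, on either strand, was found in 0 of the 10 members and in 11.9% of all promoters. Each line below gives 30 bases of the GRCm39 sequence on the strand of the gene, with the element in capitals.
Hspa1a, chr17:35191219-35191248: gcgaaactgctgGAAGATTCctggccccaa
Hspa1b, chr17:35178301-35178330: gcgaaactgctgGAAGATTCctggccccaa
Hsph1, chr5:149559817-149559846: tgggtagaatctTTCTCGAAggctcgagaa
Hspd1, chr1:55127213-55127242: cggggccTTCCGGAAGGTTCTAGAAcggac
Hspe1, chr1:55127211-55127240: cggtccgTTCTAGAACCTTCCGGAAggccc

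The elements of Hspd1 and Hspe1 are the same 18 bases, chr1:55127218-55127235, read from opposite strands, since these genes start next to each other and run apart. In Hspa1a and Hspa1b the element began 104 bases before the start, and the 250 bases before the start were 98.8% identical between them. In Hsph1 it began 28 bases before the start of the canonical transcript, and other annotated Hsph1 and Hspd1 transcripts begin further upstream, so that these elements lie within some of their first exons. Members without an element were searched only before the canonical start. The windows of Hsp90aa1 (chr12:110662882-110663131) and Hsp90ab1 (chr17:45884232-45884481) lie inside their genes, which reach upstream to 110669166 and 45891949. The window of Hspa8 (chr9:40712030-40712279) also lies inside its gene, which reaches upstream to 40711630. Other starts were not searched. A match of letters is a description and no proof that a factor bound there.

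Per transcript length, the members covered a wide span in these hearts. In TPM, the scale of RSEM that also divides by transcript length, Hspa8, the constitutive cytosolic HSP70, was highest at 1239 ± 97.7 (SD, n = 10 hearts), followed by Hsp90ab1, the constitutive cytosolic HSP90, at 620 ± 49.2 and by Hspd1 at 175 ± 15.8. Bag3 at 113 ± 8.63, Hsp90aa1, the inducible HSP90, at 102 ± 15.0 and Hspe1 at 101 ± 13.1 formed a middle group. Hsph1 was at 27.8 ± 7.75, Dnajb1 at 6.05 ± 0.666, Hspa1a at 2.59 ± 1.38 and Hspa1b at 2.32 ± 0.751. Neighbours in this order did not overlap between hearts, except Bag3 with Hsp90aa1, Hsp90aa1 with Hspe1, Dnajb1 with Hspa1a, and Hspa1a with Hspa1b. The inducible HSP70 pair together came to between 0.268% and 0.764% of the TPM of Hspa8.

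Of the 10 members 1 was called in unique counts, the inducible HSP70 gene Hspa1a, which rose, and 0 were called in RSEM expected counts. Of all tested genes 7.01% were called in unique counts, 2.75% higher and 4.26% lower, so that the share among the members was near that of all genes. At an unadjusted p below 0.05 there were 3 of 10 members, against 20.0% of all genes. The median log2 fold change of the members was −0.08, with 8 below 0 and 2 above, beside a median of 0.00026 over all tested genes. When libraries were scaled by their totals alone, 5 members lay below 0 and 5 above, and the calls over all genes turned from 425 higher and 659 lower to 1029 higher and 339 lower. In 0 of the 10 members did the training hearts lie wholly apart from the sedentary hearts, against 5.06% of all genes.

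**Figure D1:**
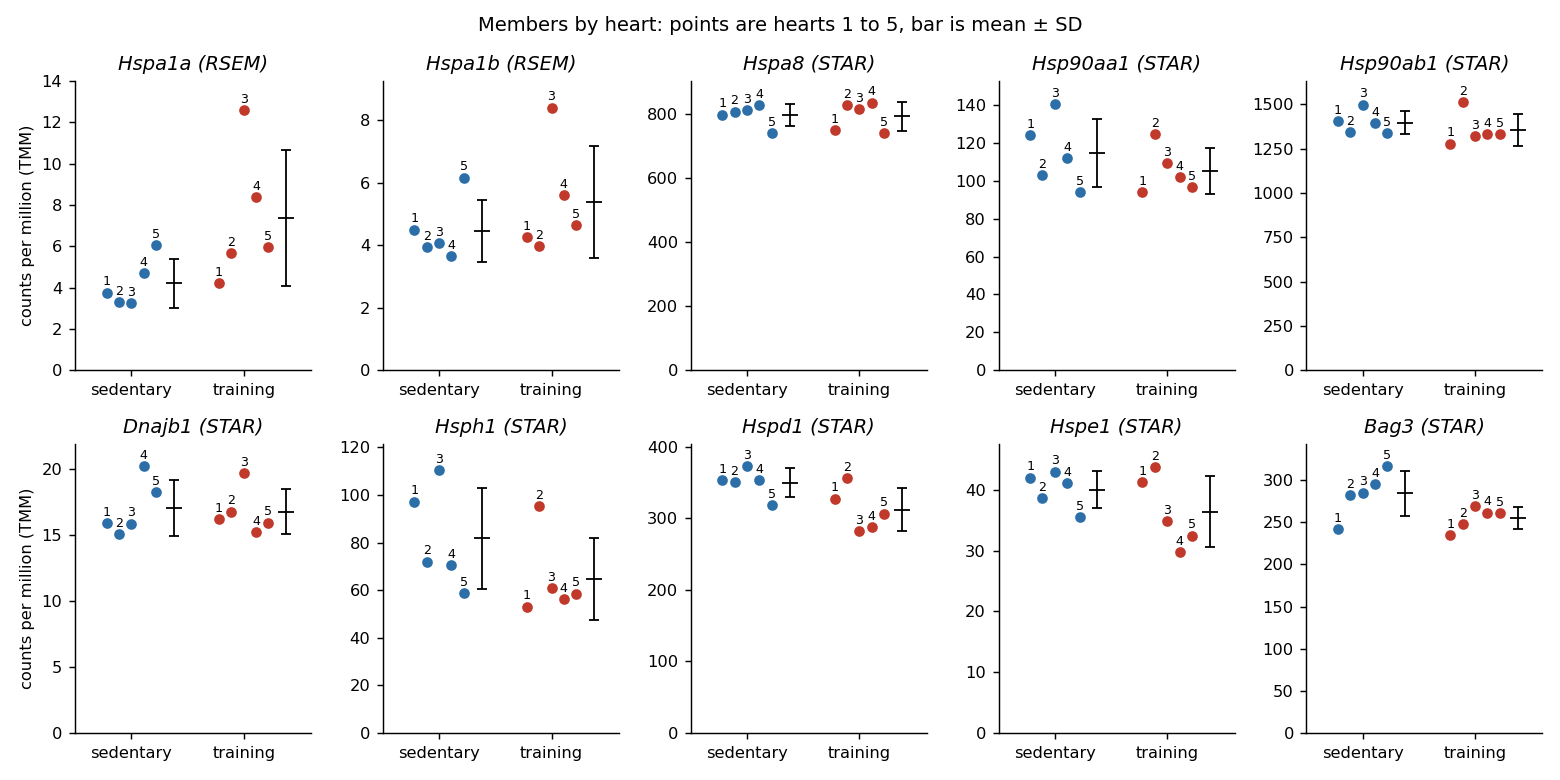
Level of each member in CPM (vertical axis, from 0) in the 5 sedentary hearts (blue) and 5 training hearts (red), numbered by heart, with the mean and SD of each group as a black bar. Hspa1a and Hspa1b are drawn from RSEM expected counts and the others from unique counts. Training heart 3 stands highest for Hspa1a at 12.6 CPM and Hspa1b at 8.41 CPM, and the groups overlap in every panel.

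The inducible HSP70 genes were the lowest of the members and differed most between hearts, with a highest level 3.88 times the lowest for Hspa1a. In unique counts Hspa1a was at 2.26, 2.86, 6.29, 4.20 and 2.89 CPM in training hearts 1 to 5, and at 2.01, 1.69, 1.57, 2.28 and 2.93 CPM in sedentary hearts 1 to 5. All 5 training hearts were above the sedentary mean, but only 2 were above every sedentary heart, and training heart 3 was the highest. These levels rest on between 58 and 235 counts a heart. The log2 fold change was 0.82 ± 0.26 (SE), with a 95% interval from 0.27 to 1.38, which is a level 77.1% higher, and the adjusted p was 0.0968 (edgeR, Benjamini-Hochberg).

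The call was close to the threshold. Without training heart 3 the log2 fold change was 0.54 and the adjusted p 0.216 (edgeR), and it also ended without training heart 4, training heart 5 or any of sedentary hearts 1 to 4, with adjusted p between 0.111 and 0.196. In RSEM expected counts the levels were 4.23, 5.68, 12.6, 8.38 and 5.98 CPM in training hearts and 3.76, 3.29, 3.25, 4.72 and 6.05 CPM in sedentary hearts. Their order over hearts was much the same, the log2 fold change was 0.81 ± 0.27 (SE), and the adjusted p of 0.121 (edgeR) missed the threshold, where 6.21% of all genes passed it. DESeq2's Wald test on unique counts called Hspa1a (adjusted p = 0.0270), and no other member, where it called 9.86% of all genes.

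Hspa1b, its near copy, did not pass. RSEM gave 4.27, 3.97, 8.41, 5.61 and 4.66 CPM in training hearts 1 to 5, and 4.50, 3.94, 4.06, 3.66 and 6.16 CPM in sedentary hearts 1 to 5. Training heart 3 was again the highest and sedentary heart 5 the second highest. Its log2 fold change was 0.27 ± 0.20 (SE), with a 95% interval from −0.16 to 0.70 and an adjusted p of 0.495 (edgeR). In unique counts it was 0.30 with an adjusted p of 0.451 (edgeR).

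As Hspa1a and Hspa1b encode almost the same protein, their expected counts were also added. The sum was at 8.52, 9.64, 21.0, 14.0 and 10.6 CPM in training hearts 1 to 5, and at 8.28, 7.21, 7.31, 8.38 and 12.2 CPM in sedentary hearts 1 to 5. Sedentary heart 5 was above 3 of the training hearts. The difference on the log2 scale was 0.56 ± 0.23 (SE), with a 95% interval from 0.071 to 1.04, and the adjusted p was 0.196 (edgeR). Hspa1a took between 49.7% and 60.0% of the sum in training hearts and between 44.5% and 56.3% in sedentary hearts, so these shares overlapped.

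Hspa8, which serves HSP70 clients without stress, was at nearly the same level in both groups. It was at 749, 828, 816, 836 and 740 CPM in training hearts 1 to 5, and at 798, 808, 813, 829 and 740 CPM in sedentary hearts 1 to 5. With a log2 fold change of −0.01 ± 0.05 (SE, adjusted p = 0.956, edgeR), its 95% interval ran from −0.11 to 0.098.

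**Figure D2:**
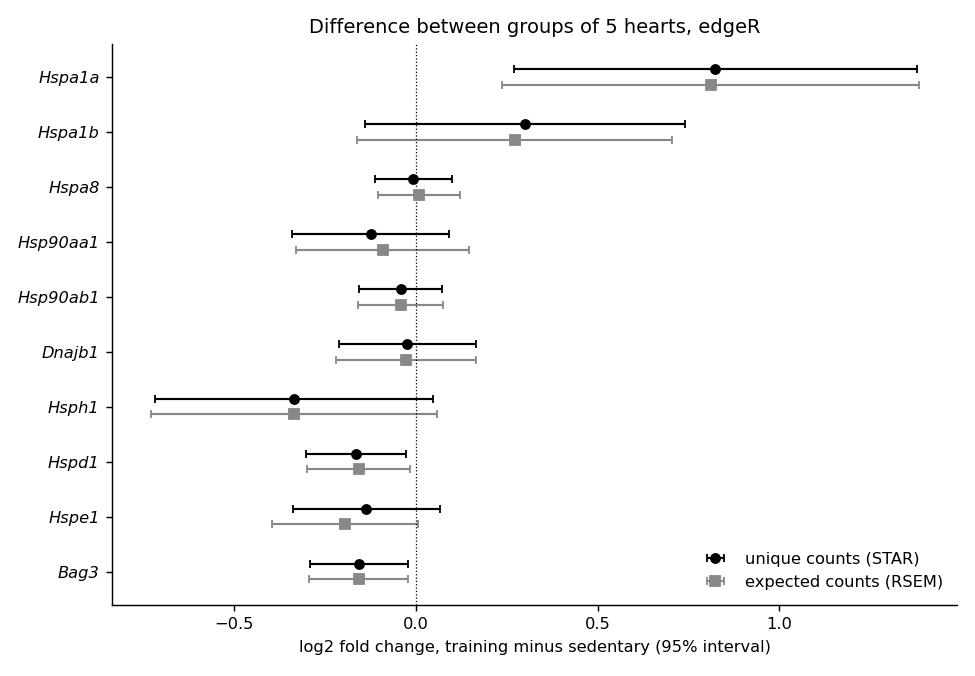
Log2 fold change from sedentary to training hearts (horizontal axis) with its 95% interval for each member, from unique counts (black circles) and from RSEM expected counts (grey squares), 5 hearts a group. Hspa1a, Hspd1 and Bag3 have intervals that leave out 0 on both kinds of count, and only Hspa1a in unique counts passed the adjusted threshold.

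None of the 3 cochaperones of HSP70 passed the test. Dnajb1, the J-domain partner of the cytosolic HSP70s and itself a heat shock gene, was at 16.2, 16.8, 19.7, 15.3 and 16.0 CPM in training hearts 1 to 5, and at 15.9, 15.1, 15.9, 20.2 and 18.3 CPM in sedentary hearts 1 to 5. The groups covered the same span, and the log2 fold change was −0.02 ± 0.09 (SE, 95% interval −0.21 to 0.16, adjusted p = 0.913, edgeR).

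Hsph1, the HSP110 that exchanges the nucleotide of HSP70 and helps to dissolve aggregates, was at 53.1, 95.3, 61.0, 56.2 and 58.5 CPM in training hearts 1 to 5, and at 97.2, 72.0, 110, 70.6 and 58.8 CPM in sedentary hearts 1 to 5. Training heart 2 stood far above the other training hearts and within the sedentary range. This was a log2 fold change of −0.34 ± 0.18 (SE), with a 95% interval from −0.72 to 0.047 and an adjusted p of 0.316 (edgeR). Without training heart 2 it was −0.52 and passed, with an adjusted p of 0.0764 (edgeR). That fit called 1252 genes in all, against 1084 with every heart. With 1 heart left out at a time, the log2 fold change of Hsph1 ran from −0.52 to −0.20.

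Hsph1 varied between hearts of 1 group far more than most genes. Its coefficient of variation within groups was 26.4%, higher than that of 99.4% of the 8496 genes averaging 10 CPM or more, where the median was 5.95%. Hsp90aa1, Hspe1 and Dnajb1 were also among the more variable genes, at 14.1%, 12.3% and 11.4%. Hspa8 at 5.06% and Hsp90ab1 at 5.73% were below the median.

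Bag3, which links HSP70 to small heat shock proteins and to autophagy of damaged sarcomere proteins, was at 235, 248, 269, 262 and 261 CPM in training hearts 1 to 5, and at 242, 282, 285, 295 and 317 CPM in sedentary hearts 1 to 5. All training hearts were below the sedentary mean, and sedentary heart 1 lay among them. The log2 fold change was −0.16 ± 0.06 (SE), with a 95% interval from −0.29 to −0.021, an unadjusted p of 0.0265 and an adjusted p of 0.187 (edgeR). Without sedentary heart 1 it was −0.21 and passed, with an adjusted p of 0.0349 (edgeR). That fit called 1490 genes in all, against 1084 with every heart. With 1 heart left out at a time, the log2 fold change of Bag3 ran from −0.21 to −0.11.

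Neither cytosolic HSP90 gene passed. Hsp90aa1 (chr12:110656842-110669166) was at 94.1, 125, 109, 102 and 96.8 CPM in training hearts 1 to 5, and at 124, 103, 140, 112 and 94.1 CPM in sedentary hearts 1 to 5. Its log2 fold change was −0.12 ± 0.10 (SE, 95% interval −0.34 to 0.091, adjusted p = 0.538, edgeR). Hsp90ab1 (chr17:45878552-45891949), the more abundant one, was at 1279, 1513, 1322, 1331 and 1333 CPM in training hearts 1 to 5, and at 1406, 1342, 1499, 1394 and 1337 CPM in sedentary hearts 1 to 5. In training, 4 of the 5 hearts lay below all sedentary hearts, while heart 2 was above all of them. Its log2 fold change was −0.04 ± 0.05 (SE, 95% interval −0.16 to 0.071, adjusted p = 0.712, edgeR).

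The mitochondrial chaperonin was lower on average but did not pass. Hspd1 (chr1:55116989-55171038) was at 328, 356, 282, 288 and 307 CPM in training hearts 1 to 5, and at 353, 351, 373, 354 and 318 CPM in sedentary hearts 1 to 5. Training hearts 3, 4 and 5 were below all sedentary hearts, and training heart 2 was within the sedentary range. The log2 fold change was −0.16 ± 0.06 (SE), with a 95% interval from −0.30 to −0.028, an unadjusted p of 0.0215 and an adjusted p of 0.168 (edgeR). Without training heart 2 it was −0.22 and passed, with an adjusted p of 0.0537 (edgeR). That fit called 1252 genes in all, against 1084 with every heart. With 1 heart left out at a time, the log2 fold change of Hspd1 ran from −0.22 to −0.13.

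Hspe1 (chr1:55127260-55130476), the lid of the chamber, was at 41.2, 43.8, 34.8, 29.8 and 32.5 CPM in training hearts 1 to 5, and at 42.0, 38.6, 43.0, 41.1 and 35.5 CPM in sedentary hearts 1 to 5. As for Hspd1, training hearts 3, 4 and 5 were below all sedentary hearts. The log2 fold change was −0.14 ± 0.09 (SE, 95% interval −0.34 to 0.065, adjusted p = 0.454, edgeR) in unique counts and −0.20 (adjusted p = 0.265, edgeR) in RSEM expected counts.

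The members fell into sets that were high in different hearts. In training, heart 2 was the highest for Hsp90aa1, Hsp90ab1, Hsph1, Hspd1 and Hspe1, and in sedentary mice heart 3 was the highest for the same 5 genes. Hspa1a and Hspa1b were not high in these hearts, and peaked in training heart 3 and sedentary heart 5. Sedentary heart 5 was at the same time the lowest of its group for Hspa8, Hsp90aa1, Hsp90ab1, Hsph1, Hspd1 and Hspe1. As deviations from the group mean on the log2 scale, training heart 2 was at 0.59 for Hsph1 and −0.27 for Hspa1a, and sedentary heart 5 was at −0.44 for Hsph1 and 0.51 for Hspa1a. These are descriptions of 10 hearts, without a test.

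**Figure D3:**
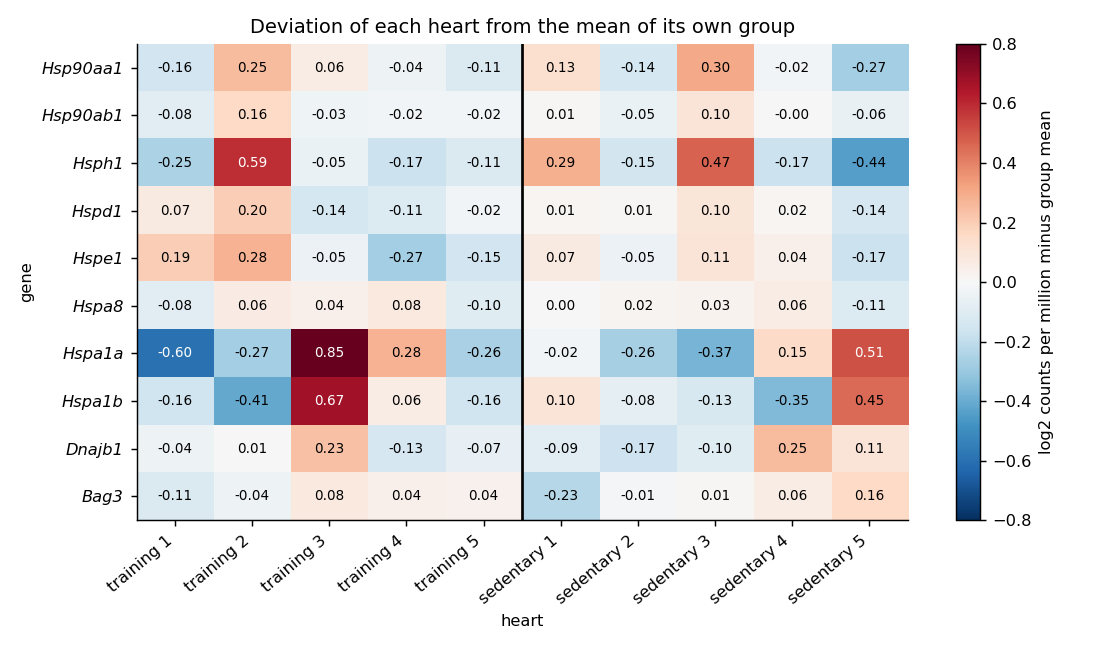
Deviation of each heart (columns, 5 training then 5 sedentary) from the mean of its own group in log2 CPM of unique counts for each member (rows), printed in each cell, with red above and blue below the mean. Training heart 2 and sedentary heart 3 are red from Hsp90aa1 to Hspe1 and blue for Hspa1a and Hspa1b, and sedentary heart 5 shows the opposite.

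Genes whose levels followed those of the members across hearts were sought among the 8488 other genes of this level. For each heart the deviations from the group mean were averaged over the 8 members other than Hspa1a and Hspa1b. Hsp90ab1, Hsp90aa1 and Hsph1 followed the other members most closely, with r of 0.91, 0.88 and 0.77, while Dnajb1 (−0.08) and Bag3 (−0.39) did not follow them. Members were not scaled to equal spread before averaging. The largest deviations among the 8 were those of Hsph1, at 0.59 in training heart 2 and 0.47 in sedentary heart 3. From the genes searched, the 10 genes with the largest Pearson r over the 10 hearts were taken. They were Srl (r = 0.95, rho = 0.90), Ctps1 (0.94, 0.95), Unc45b (0.94, 0.90), Hspb1 (0.94, 0.81), Cct6a (0.94, 0.94), Stip1 (0.93, 0.83), Pdlim5 (0.93, 0.93), Fhip1a (0.92, 0.89), Bysl (0.91, 0.76) and Cct2 (0.91, 0.95). Of these, 5 belong to the chaperone lists described next: Unc45b, the myosin chaperone that works with HSP90, Stip1, which joins HSP70 to HSP90, the small heat shock protein Hspb1, and the chaperonin subunits Cct6a and Cct2. The 8 lists hold 109 genes, and their share among the 8488 was not counted. The mean that was matched was itself taken over chaperone genes. Without sedentary heart 3 and training heart 2, the hearts farthest from the median, r for these 10 genes lay between 0.58 and 0.86. They were picked as the highest of many, so no p is given, and the genes compared share the same libraries and scaling.

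Ratios within a heart, in TPM, do not depend on the scaling between libraries, and 6 were put to an exact permutation test, two-sided, with Benjamini-Hochberg adjustment over the 6. With 5 hearts against 5 the smallest possible p is 0.00794. The pair of Hspa1a and Hspa1b to Hspa8 differed by 0.47 on the log2 scale (exact p = 0.103, adjusted p = 0.190), and 5 of 5 training hearts were above the sedentary mean. Bag3 to Hspa8 differed by −0.19 (exact p = 0.0556, adjusted p = 0.190), and 5 of 5 training hearts were below the sedentary mean. Hsph1 to Hspa8 differed by −0.37 (exact p = 0.0794, adjusted p = 0.190) and Hsp90aa1 to Hsp90ab1 by −0.14 (exact p = 0.127, adjusted p = 0.190). Hspd1 to Hspe1 differed by 0.04 (exact p = 0.540, adjusted p = 0.643) and Dnajb1 to Hspa8 by −0.06 (exact p = 0.643, adjusted p = 0.643). None of the 6 passed, and the groups overlapped in each.

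**Figure D4:**
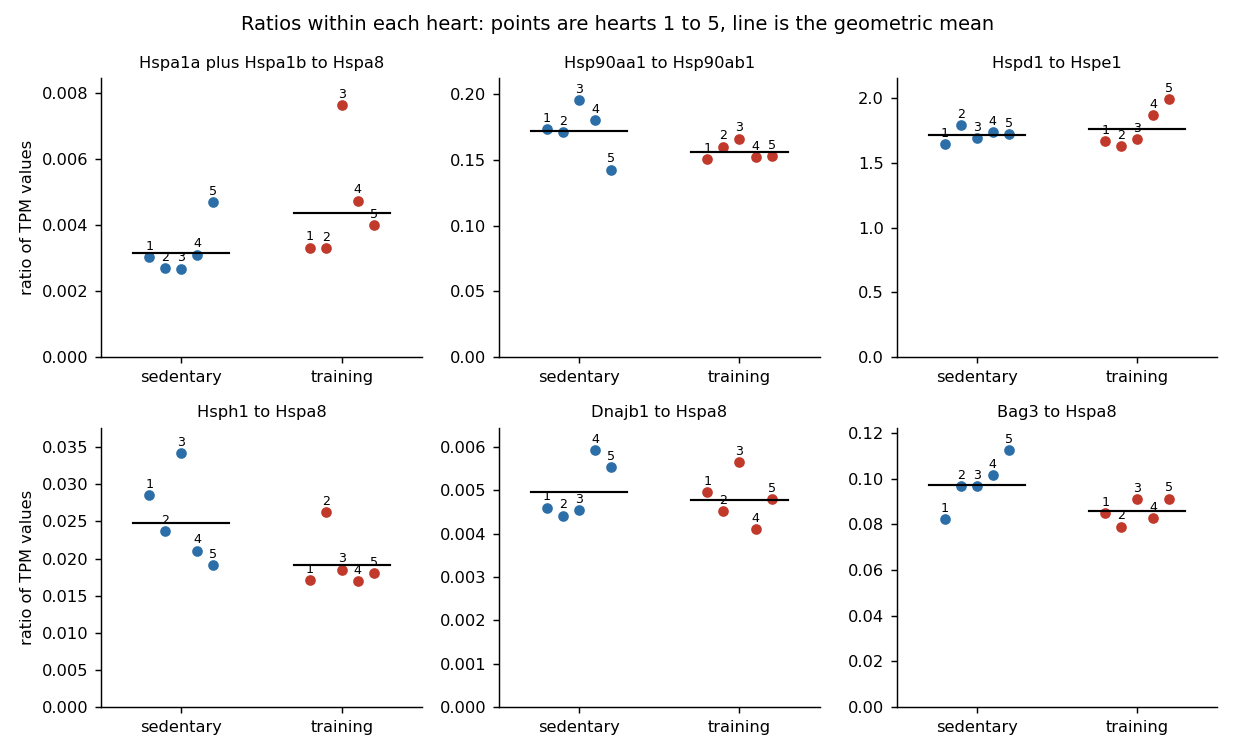
Ratios of TPM values within each heart (vertical axes, from 0) for 6 pairs of members in sedentary (blue) and training (red) hearts, numbered by heart, with the geometric mean of each group as a line. Training heart 3 has the highest ratio of the inducible pair to Hspa8 at 0.00764, and the groups overlap in all 6 panels.

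Beside the members, 109 genes in 8 hand-written lists of the wider chaperone network were read from the same fit, and 108 of them were tested. The lists around the cytosolic and mitochondrial chaperones held 85 tested genes, of which 9 were called (10.6%), 1 higher and 8 lower, with a median log2 fold change of −0.04. Over all tested genes 7.01% were called, 2.75% higher and 4.26% lower. Of 5 tested genes of heat shock factors and their binding proteins (Hsf1, Hsf2, Hsf4, Hsbp1 and Hsbp1l1) 0 were called by edgeR or DESeq2, with 1 at an unadjusted p below 0.05 in edgeR, and Hsf4, the one with the largest change, was at 0.23 ± 0.09 (SE, adjusted p = 0.188, edgeR). Of 8 other HSP70 and HSP110 genes 0 were called by either tool, with 3 at an unadjusted p below 0.05, and Hspa2 was at 0.22 ± 0.08 (SE, adjusted p = 0.140, edgeR). Of 8 subunits of the cytosolic chaperonin, which folds actin and tubulin, 0 were called by either tool and 0 had an unadjusted p below 0.05, with Cct4 at 0.05 ± 0.04 (SE, adjusted p = 0.570, edgeR).

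Among 32 J-domain cochaperones 1 was called higher and 3 lower, where 7.01% of all tested genes were called. The one that rose was Dnajc6, auxilin, which strips clathrin from vesicles, by 0.93 ± 0.24 (SE, adjusted p = 0.0549, edgeR) from 0.480 CPM. Those that fell were Dnajc11 (−0.30), Dnajc30 (−0.17) and Dnaja3 (−0.14), whose proteins are found in mitochondria. Of 8 nucleotide exchange factors and BAG proteins outside the members 2 were called, Grpel1 (−0.16) and Grpel2 (−0.21), which serve the HSP70 of mitochondria, and both fell. Of 24 HSP90 cochaperones 3 fell and 0 rose. They were Fkbp5 (−0.50), a partner of the glucocorticoid receptor, Cdc37l1 (−0.19), and Smyd1 (−0.16), a muscle methyltransferase that acts with the myosin chaperone. Their adjusted p were 0.0890, 0.0531 and 0.0653 (edgeR). Fkbp5 lost its call in DESeq2 (adjusted p = 0.105) and in RSEM expected counts (adjusted p = 0.108, edgeR). It also lost it in 9 of the 10 fits without 1 heart. When libraries were scaled by totals alone, the medians of the J-domain list and of the HSP90 cochaperones turned from −0.05 and −0.02 to 0.00075 and 0.03. The calls turned as well under that scaling, to 1 higher and 1 lower for the J-domain list, 0 for the exchange factors, and 2 higher and 0 lower for the HSP90 cochaperones.

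The small heat shock proteins and the chaperones of the endoplasmic reticulum lay on opposite sides of 0. All 7 small heat shock protein genes were below 0, with a median of −0.14, and 2 were called lower (28.6%), against 4.26% of all genes. Hspb6, a cardiac small heat shock protein, fell from 908 ± 65.5 to 677 ± 56.4 CPM (SD, n = 5; log2 fold change −0.42, adjusted p = 0.00871, edgeR), and Hspb7 was at −0.22 (adjusted p = 0.0451, edgeR). All 16 endoplasmic reticulum chaperones were above 0, with a median of 0.14, and 6 were called higher (37.5%), against 2.75% of all genes. Among these were calnexin (Canx, 0.18), the disulfide isomerase Pdia6 (0.24), Hspa13 (0.17), Dnajc10 (0.16) and Dnajb11 (0.14). Both lists kept these signs for every gene when libraries were scaled by totals alone or with DESeq2 size factors. With the clock gene score in the fit, 13 of the 16 were above 0 and 2 were called. With the mouse number as a block, 3 of the 16 were called. With a score of atrial markers in the fit, 15 of the 16 were above 0. In that fit 0 genes of either list were called, and 0.369% of all genes.

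**Figure D5:**
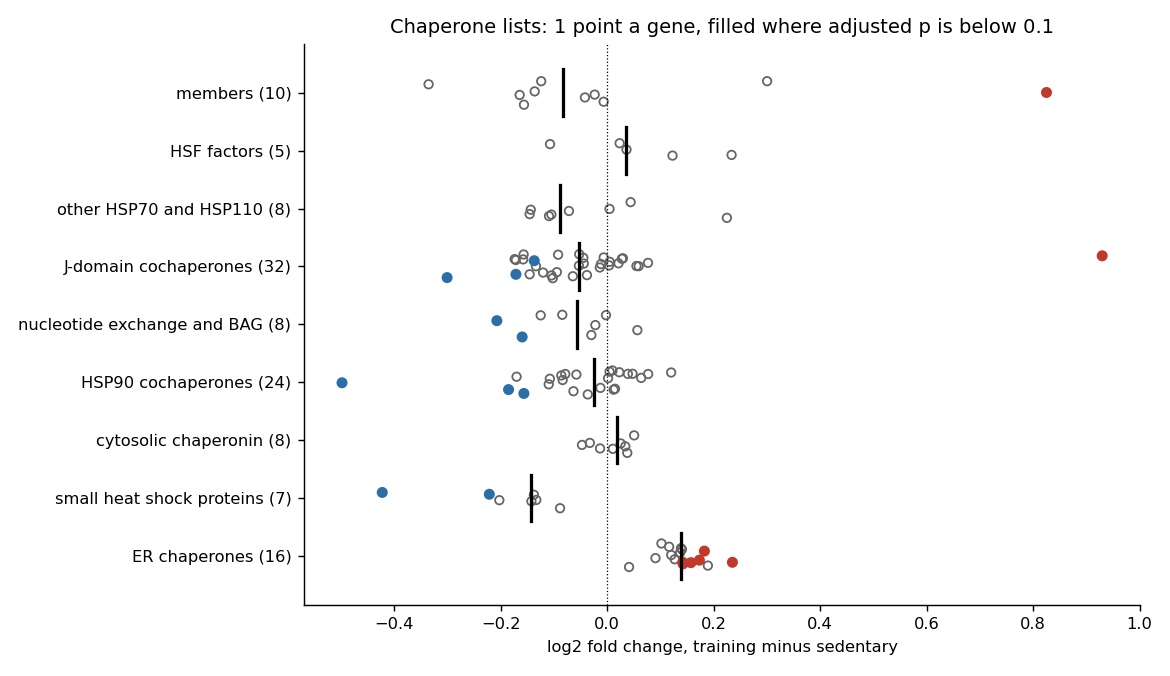
Log2 fold change from sedentary to training hearts (horizontal axis) for every tested gene of the members and of 8 chaperone lists, with the number of genes in brackets and the median of each list as a black line; filled points passed an adjusted p below 0.1, red higher and blue lower. The 16 endoplasmic reticulum chaperones lie right of 0, the 7 small heat shock proteins left of 0, and the members on both sides.

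Other markers moved with the groups. In bulk tissue fewer cells of a type and less RNA per cell cannot be told apart. Heart muscle markers were abundant in every heart, as the label says. Their summed level was 57965 to 62936 CPM in training hearts and 61061 to 70110 CPM in sedentary hearts. All 8 were below 0, with a median log2 fold change of −0.11, and 1 of 8 was called lower. Atrial markers summed to 5259 to 7836 CPM in training hearts and 2923 to 7016 CPM in sedentary hearts, with 3 of 8 called higher and none at 0. Training heart 3, the highest for Hspa1a, had the highest atrial marker score at 0.60, whereas sedentary heart 5, the highest of its group for Hspa1a, had a score of −0.69. With this score as a covariate Hspa1a was at 0.59 with an adjusted p of 0.597 (edgeR), and 57 genes in all (0.369%) were called. Of the 8 immediate early genes, which respond quickly to many stimuli, 0 were called by edgeR or DESeq2, with 2 at an unadjusted p below 0.05 in edgeR. Of other cell markers, 2 of 7 fibroblast genes were called higher. Called lower were 1 of 6 endothelial, 1 of 6 mural and 1 of 5 tested adipocyte genes. Called or not, 6 fibroblast genes were above 0, and 5 endothelial and 4 mural genes were below 0. The adipocyte gene called lower was Fabp4 (−0.24). The other 4, Adipoq, Plin1, Cfd and Cidec, were above 0 and not called, and the median of that list was 0.53. Of 3 tested genes in the skeletal muscle list, Ckm (−0.22) and Acta1 (−0.84) were called lower, and Tnnt3 was at 0.43 and not called. The sum of the list, which did not overlap between the groups, was mostly Ckm, at 1515 to 2015 CPM. Myh1, Myh2 and Myh4 were at up to 0.125 CPM and not tested. The part of these markers in the members' values was not tested further.

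Of 13 circadian clock genes 8 were called, 5 higher and 3 lower. A clock score, the mean of Bmal1, Clock, Npas2 and Cry1 less that of Per1, Per2, Per3, Nr1d1, Nr1d2, Dbp, Tef and Ciart on the log2 scale, was at −0.59, −0.07, −0.17, −0.28 and −0.69 in training hearts 1 to 5. It was at 1.08, 0.52, 0.83, −0.46 and −0.17 in sedentary hearts 1 to 5. Training heart 2, the highest training heart for Hsph1, had the highest score of its group, and sedentary hearts 1 and 3, the highest sedentary hearts for Hsph1, had the highest scores of theirs. Other hearts went the other way. Training heart 5 had the lowest score, with Hsph1 at 58.5 CPM, above training hearts 1 and 4. Sedentary heart 5 had the lowest Hsph1 of its group, 58.8 CPM, and a score above that of sedentary heart 4, where Hsph1 was at 70.6 CPM. With the score as a covariate the log2 fold change of Hsph1 went from −0.34 to 0.05 and that of Hsp90aa1 from −0.12 to 0.07, neither past the threshold, and 6 members were above 0. In that fit Hspa1a was at 0.75 and lost its call, with an adjusted p of 0.225 (edgeR). Bag3 was at −0.25 and passed, with an adjusted p of 0.0703 (edgeR), in a fit that called 7.17% of all genes. The part of the hour of day in these values was not tested.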

How the data were processed

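For each of the 10 hearts the authors deposited unnormalized counts per gene and strand, of reads with 1 place in the genome, from STAR 2.7.10a (GRCm39, Ensembl release 107), and expected counts, TPM and FPKM per gene from RSEM 1.3.3; FPKM were not used. How RSEM treated strand is not given in the sources used here. Libraries were poly-A selected, directional, with single reads of 100 bases in 1 pool. Lines of the count files that are no gene were left out: multimapping reads were 17.9% to 19.2% and reads on no gene 4.15% to 4.89% of reads.

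Symbols and positions came from GENCODE M39, which matched 56017 of 56748 identifiers. Reverse-strand counts, 94.9% to 95.6% of those on either strand, were fitted in edgeR 4.0.16 (filterByExpr, TMM, quasi-likelihood F test). Expected counts were rounded and fitted likewise. DESeq2 1.42.0, other scalings, filters, strands, depths and covariates, and each heart left out were alternatives. Steps were tested on simulated data. Replicates of a group differed beyond sampling noise. Depth limits Hspa1a and Hspa1b most. Windows were matched with blastn 2.17.0.

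The members and the lists, written by hand, were chosen with earlier results of these data known. All members were named; of each list, the called genes, at most 5 of smallest p in each direction, or else the largest change; and the 10 genes most like the members.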

Additional observations from a re-analysis of the deposited data

Results flagged for a closer look

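In 38 groups of 5 values tested, 1 heart stood apart from the other 4 of its group in 5, by Dixon's criterion of a gap to the nearest heart above 0.71 of the range. Chance flags about 1 group in 20, and several of these values share a gene and a heart. Training heart 2 was at 1513 CPM for Hsp90ab1, where the other training hearts were between 1279 and 1333 CPM. The same heart was at 95.3 CPM for Hsph1, against 53.1 to 61.0 CPM, and its ratio of Hsph1 to Hspa8 in TPM was 0.0263, against 0.0170 to 0.0185. Sedentary heart 5 was at 12.2 CPM for Hspa1a and Hspa1b together in RSEM expected counts, against 7.21 to 8.38 CPM in the other sedentary hearts. Its ratio of this pair to Hspa8 in TPM was 0.00469, against 0.00268 to 0.00310.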

How the results depend on the processing

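Of the members, 1 was called; 0 were called with an atrial marker score in the fit, with RSEM expected counts, with counts of both strands and at an FDR below 0.05, and 0 to 3 when 1 heart was left out (3 without training heart 2). The 17 called chaperone genes became 11 with the mouse number as a replicate block, 0 with the atrial score, 7 with the clock gene score, 6 at an FDR below 0.05, and 5 to 22 without 1 heart. The 1084 called genes became 57 with the atrial score, 505 at an FDR below 0.05, and 512 to 1490 without 1 heart. Of the 16 named list genes that were called, 5 (Dnajc11, Dnajc30, Hspb6, Canx and Pdia6) kept the call without any 1 heart, and the other 11 all lost it without training heart 4 and without sedentary heart 3. DESeq2 kept 15, RSEM counts 14, the block 10, library totals 9, the clock score 6 and the atrial score 0; of the 8 lower calls in the cytosolic and mitochondrial lists, library totals kept that of Dnajc11 alone. The mouse numbers did not pair the hearts, with residual correlations between −0.10 and 0.16 and 1 of 5 hearts closest to its own number; under the block Hspa1a was at 0.77 (adjusted p = 0.114, edgeR) and Bag3 at −0.15 (adjusted p = 0.0981, edgeR). In RSEM expected counts Hspa1a passed with library totals (0.88), with no filter (0.81) and with counts thinned to the smallest library (0.86), as it did in unique counts (0.82); without 1 heart it was 0.52 to 0.98, Hspa1b 0.048 to 0.41 and their sum 0.30 to 0.71. Signs turned for Hspa8 with library totals (0.047), the clock score (0.031) and RSEM counts (0.0081), for Hsp90ab1 with library totals and with the clock score (0.011 in both), Dnajb1 with library totals (0.033), and, from values further from 0, Hsp90aa1 (−0.12 to 0.068) and Hsph1 (−0.34 to 0.051) with the clock score. Hspd1 to Hspe1 was −0.019 from CPM and −0.031 from group medians, and Dnajb1 to Hspa8 was 0.060 from group medians. Without 1 heart Hspa8 ranged from −0.033 to 0.017, Dnajb1 from −0.088 to 0.044, Hspd1 to Hspe1 from −0.0047 to 0.068, Dnajb1 to Hspa8 from −0.12 to 0.0065, the inducible pair to Hspa8 from 0.26 to 0.61, Hsp90aa1 to Hsp90ab1 from −0.20 to −0.090, Hsph1 to Hspa8 from −0.49 to −0.26 and Bag3 to Hspa8 from −0.25 to −0.13. The cause of these changes was not tested. No alternative that was planned was left out.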

Other observations

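Few reads lay on the strand opposite to the members, and their number differed between hearts. Over all 10 members they were 788 counts in training heart 1 (0.791% of the counts on either strand), 524 in sedentary heart 3 (0.423%) and 320 in training heart 3 (0.292%). In the other 7 hearts they were between 67 and 156 counts, or 0.067% to 0.126%. Hearts of both groups were among the high ones, and no comparison of groups was made with these counts.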
